A study of Mus musculus with 96 samples.

Results

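The regions described here are the WDR5 peaks of Rybp+/+ mouse embryonic stem cells (ESCs) that lie outside H3K4me3. Each is an interval of the Rybp+/+ WDR5 peak list that shares no base with any interval of the Rybp+/+ H3K4me3 list, which held for 291 of the 11965 WDR5 peaks. The remaining 11674 WDR5 peaks overlapped H3K4me3 and served for comparison, together with the 1070 of them whose summit was more than 2.5 kb from an annotated transcription start site (TSS), called distal below. The regions were thus chosen by the measured WDR5 and H3K4me3 peaks of Rybp+/+ ESCs, and their WDR5 height and their lack of H3K4me3 in those lists are given as a description only.

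ChIP-seq of WDR5, H3K4me3 and H3K27ac was performed in Rybp-floxed ESCs of the R7.15 line, which carry the wild-type genotype label as Rybp+/+ and became Rybp-/- after 5 µM 4-hydroxytamoxifen for 4 days, with 2 samples per antibody and genotype. STAT3 was profiled in the same line with 1 sample per genotype, and RING1B in R1 ESCs carrying an empty knockdown vector (shEV) with 1 sample. R1 ESCs with a doxycycline-inducible Rybp and Stat3 integration (Tet.Rybp.Stat3) gave STAT3 and RING1B lists without doxycycline (DOX-) and a STAT3 list with it (DOX+), from 2 samples each. RNA-seq compared shWdr5 with shEV and shRybp with shEV in R1 ESCs, and Rybp-/- with Rybp+/+ in R7.15 ESCs, with 2 libraries per group and 19.7 M to 81.0 M reads in genes per library. Rybp+/+ ESCs were the control without 4-hydroxytamoxifen, so Rybp deletion and exposure to the drug cannot be told apart. Replicates were merged before peaks were called, so a peak list carries no replicate spread, its read depth is unknown, and the 95% intervals given below (Wilson for a share, Newcombe for a difference of shares) cover counting error only. Nothing in the labels says whether libraries of a group came from separate cultures, and p-values then measure only the spread between these libraries.

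WDR5 is a WD-repeat protein best known as a shared subunit of the MLL and SET1 complexes, which methylate lysine 4 of histone H3 at promoters, and it is also found in other chromatin complexes, among them a variant PRC1 in ESCs. H3K27ac marks active promoters and enhancers, and RING1B is the catalytic subunit of PRC1. REST is a repressor that binds the RE1 element and keeps neuronal genes low outside the nervous system. NF-Y is a trimeric factor that binds the CCAAT box, a common promoter element.

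The sequences under the strongest of these peaks fell into a few kinds, and a window of 300 bases around the summit is printed for 3 leading peaks (mm9, plus strand). The peak nearest to Srbd1 is the highest of all, and in its window capitals mark the 5 copies of the word AAAGGCTGGG in a tandem repeat with a period of 52 bases, at which 89.9% of the bases equal the base 1 period on. The Nfic peak is the highest with 2 extended CCAAT boxes. In the Nfic window, and in that of the peak nearest to Gm10167, which leads the largest group of related sequences, capitals mark CCAAT or its reverse complement ATTGG.
Srbd1, chr17:86550274-86550573, plus strand: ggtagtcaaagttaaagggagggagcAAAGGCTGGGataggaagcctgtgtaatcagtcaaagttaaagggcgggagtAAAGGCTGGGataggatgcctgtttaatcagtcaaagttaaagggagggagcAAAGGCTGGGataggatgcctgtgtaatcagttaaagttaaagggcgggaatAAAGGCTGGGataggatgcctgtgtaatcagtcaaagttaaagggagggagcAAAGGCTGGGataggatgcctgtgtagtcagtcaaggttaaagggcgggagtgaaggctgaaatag
Nfic, chr10:80895711-80896010, plus strand: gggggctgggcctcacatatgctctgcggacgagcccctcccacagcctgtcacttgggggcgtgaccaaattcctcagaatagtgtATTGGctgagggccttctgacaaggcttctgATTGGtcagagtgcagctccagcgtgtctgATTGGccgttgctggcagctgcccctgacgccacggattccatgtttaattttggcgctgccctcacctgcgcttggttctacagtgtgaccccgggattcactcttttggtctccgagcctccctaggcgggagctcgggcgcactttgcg
Gm10167, chr5:149003059-149003358, plus strand: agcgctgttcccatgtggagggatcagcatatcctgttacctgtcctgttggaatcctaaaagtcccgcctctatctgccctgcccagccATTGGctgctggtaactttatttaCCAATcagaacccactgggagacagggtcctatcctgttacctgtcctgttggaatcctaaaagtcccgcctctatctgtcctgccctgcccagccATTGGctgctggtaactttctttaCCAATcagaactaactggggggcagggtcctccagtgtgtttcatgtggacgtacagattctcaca

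RE1 was searched as the half-sites CAGCACC and GGACAG with 2 unspecified bases between them, on both strands and with up to 2 mismatches among the 13 defined bases. The best match of a peak is printed with 7 bases on either side, for strong peaks and for peaks whose nearest gene is described below with the RNA-seq data. Capitals mark the bases equal to the motif, and the sequences are 5′ to 3′ on the strand of the match (mm9).
Npas4, chr19:4989155-4989183, plus strand: tgggattCAGCACCgcGGACAGctcctgc
Gm16532, chr7:6362979-6363007, plus strand: cgtggttCAGCACCaaGGACAGcgtgcct
Phf21b, chr15:84660022-84660050, minus strand: atgaggcCAGCACCacGGACAGcaccaga
Tas1r3, chr4:155233546-155233574, minus strand: tactggcCAGCACCagGGACAGagccaca
Vstm2l, chr2:157739245-157739273, minus strand: gagggttCAGCACCgtGGACAGatccccg
Lin28a, chr4:133576708-133576736, minus strand: gcgctctCAGCACCctGGACAGagcaagt
Gprin1, chr13:54852237-54852265, plus strand: ccgttttCAGgACCacGGACAGcgcacag
A230050P20Rik, chr9:20661914-20661942, minus strand: aggtcctCAGCACCacGGACAGattcctt
Stmn3, chr2:181036988-181037016, plus strand: ccgtggaCAGCtCCtatGACAGcttcagg
Onecut1, chr9:74716348-74716376, plus strand: ccaaagtCAGgACCctGGACAGagccccg

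The annotation places the WDR5 summits of these peaks in different gene contexts. The summits nearest to Npas4, Gm16532, Phf21b and Onecut1 were placed in introns, that of Gm16532 only 7 bp from its TSS. The Tas1r3 summit was placed in an exon, and those nearest to Vstm2l, Lin28a, Gprin1, A230050P20Rik and Stmn3 were intergenic. The matches themselves were not placed. Matches to the motif are a description of the sequence and not a measurement of REST, which was not profiled in the files used here.

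Members of the largest related group shared a further kind of sequence, an inverted pair of CCAAT boxes, ATTGG and CCAAT, with AATAAAG between them. This arrangement was noticed in the printed windows and then counted. Sites from 7 peaks of the group are shown (mm9, on the strand of the match, capitals for the defined bases).
Gm10167, chr5:149003149-149003177, minus strand: ATTGGtaAATAAAGttaccagcagCCAAT
Ch25h, chr19:34575389-34575417, plus strand: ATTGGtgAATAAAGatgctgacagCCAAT
Epha4, chr1:77370790-77370818, plus strand: ATTGGctAATAAAGatacgggcagCCAAT
Amigo2, chr15:97176499-97176538, minus strand: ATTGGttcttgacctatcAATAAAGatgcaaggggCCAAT
Cfdp1, chr8:114335027-114335066, plus strand: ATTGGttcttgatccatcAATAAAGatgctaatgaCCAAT
Ccdc126, chr6:49274817-49274856, minus strand: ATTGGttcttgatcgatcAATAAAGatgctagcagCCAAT
Gmeb1, chr4:131794440-131794479, plus strand: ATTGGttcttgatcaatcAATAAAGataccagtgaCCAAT

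The 291 peaks were mostly modest in height. Their WDR5 fold enrichment over background, the ratio the authors' MACS2 gives, ranged from 2.32 to 41.7 with a median of 4.83, against a median of 5.17 for the other WDR5 peaks. They were narrow, with a median width of 318 bp (209 to 1399 bp) against 599 bp. The median distance to the nearest H3K4me3 peak was 4636 bp, and 80 peaks lay within 1 kb of one. Chromosome 4 held 36 of the 291 peaks (12.4%) and 7.17% of the other WDR5 peaks.

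Around the border of the rule, peaks inside and outside were alike in height. Just inside were chr17:27498357-27498703 with a fold enrichment of 6.80, which abuts an H3K4me3 peak without a shared base, and chr19:47770960-47771233 (5.42) and chr8:98425528-98425821 (3.14), each 12 bp from one. Just outside were chr6:145804364-145804677 (4.51), chr6:51128636-51128857 (4.13) and chr7:31117008-31117263 (5.34), which shared 3, 10 and 11 bp with H3K4me3.

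The 10 highest peaks had fold enrichments of 16.6 to 41.7, and the next was at 16.1. Srbd1, an S1 RNA-binding domain gene, lies 5909 bp from the summit of the highest peak, chr17:86549502-86550900, with a fold enrichment of 41.7 in Rybp+/+ and 47.2 in Rybp-/- ESCs. The peak in an intron of Npas4, an activity-induced transcription factor of neurons, had 25.5 and 22.5 at chr19:4988919-4989518.
All 10 of these peaks were also called in Rybp-/- ESCs, and none overlapped H3K27ac in Rybp+/+ ESCs.

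The next peaks lay 7 bp from the TSS of Gm16532 at chr7:6362732-6363250 (24.1 in Rybp+/+ and 31.2 in Rybp-/- ESCs) and 12327 bp from the TSS of Igsf21, a neuronal adhesion molecule, at chr4:139814761-139815387 (23.9 and 24.3). Phf21b, which encodes a PHD finger protein, held an intronic peak at chr15:84659746-84660257 (19.7 and 21.8). The peak 27 bp from the TSS of Capsl, chr15:9365394-9366142, had 19.0 and 14.9, and it was the peak among the 10 that overlapped H3K27ac in Rybp-/- ESCs. The exonic peak of Tas1r3, a taste receptor subunit, had 18.8 and 15.9 at chr4:155233356-155233838. The Nfic peak, near the gene of a CTF/NF-I transcription factor, had 17.9 and 22.8 at chr10:80895445-80896117, and it alone of the 10 overlapped a RING1B peak. The tenth peak, chr12:44073737-44074243, lay 691233 bp from the nearest TSS and had 16.6 and 18.0. Of the 10 windows, 6 held an RE1 match and 3 held 2 or more CCAAT boxes.

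**Figure D1:**
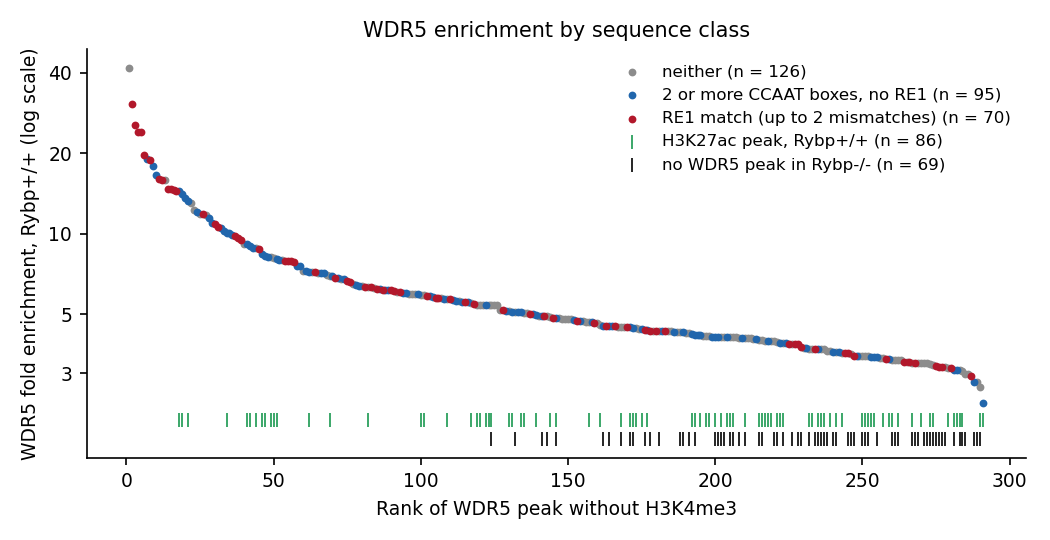
WDR5 fold enrichment in Rybp+/+ ESCs (log axis) of each of the 291 peaks without H3K4me3 against its rank, coloured by sequence class. Green ticks mark peaks with H3K27ac and black ticks those without a WDR5 peak in Rybp-/- ESCs; RE1 peaks are common at the left, green ticks are absent from the 10 highest, and all 69 black ticks lie at a fold enrichment of 5.39 or less.

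Most of these peaks lay away from promoters. A TSS was within 2.5 kb of the summit at 56 of 291 peaks (19.2%, 15.1 to 24.2) and at 90.8% of the other WDR5 peaks, a difference of -71.6 percentage points (-75.7 to -66.6). The share was 11.4% for members at least 1 kb from H3K4me3 and 9.62% with a TSS within 1 kb. Summits were intergenic at 158 peaks, intronic at 123 and exonic at 10. The share of exonic summits was 3.44%, against 17.8% for the distal WDR5 peaks (difference -14.3, -17.2 to -10.8), and that of intronic summits was 42.3% against 25.9% (difference 16.4, 10.2 to 22.7). In 31 cases (10.7%) no TSS lay within 50 kb, which was close to the 9.63% of the distal peaks (difference 1.03, -2.57 to 5.41).

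H3K27ac, RING1B and STAT3 were all less frequent at these peaks. H3K27ac of Rybp+/+ ESCs overlapped 86 of 291 peaks (29.6%, 24.6 to 35.0), 82.5% of the other WDR5 peaks and 68.4% of the distal ones. The difference from the distal peaks was -38.9 percentage points (-44.5 to -32.7). From all other WDR5 peaks the difference was -53.0 (-58.0 to -47.4), and it was -51.9 when those peaks were weighted to the members' 10 classes of WDR5 fold enrichment (81.4%). No such matched value was made for the distal peaks. The 86 peaks with H3K27ac had a median fold enrichment of 4.13 (2.32 to 14.5) and the 205 without had 5.17 (2.79 to 41.7), so the ranges overlapped widely. From the lowest to the highest of 5 classes of fold enrichment, H3K27ac was at 27 of 59, 22 of 58, 19 of 58, 6 of 58 and 12 of 58 peaks. Those highest in WDR5 were nearest to Gm10167 (14.5, in an intron of Mtus2), Zbtb32 (14.1), Dpcr1 (13.3), Amigo2 (10.1) and Spdef (9.12). Super-enhancers rebuilt from the Rybp+/+ H3K27ac list contained 41 of the peaks (14.1%) and 24.3% of the distal WDR5 peaks (difference -10.2, -14.6 to -5.10).

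RING1B of shEV ESCs was called at 24 of the peaks (8.25%, 5.60 to 12.0), against 54.7% of the distal WDR5 peaks (difference -46.4, -50.4 to -41.6). For members at least 1 kb from H3K4me3 it was 5.21%. With the list of Tet.Rybp.Stat3 DOX- ESCs the numbers were 30 peaks (10.3%) and 59.3%. The highest with RING1B were the peaks of Nfic and Zbtb32, a BTB zinc finger gene, followed by those nearest to Prr19 (11.4), Nkx1-1, a homeobox gene (9.65), and Tgm2, a transglutaminase (8.04). Among the 24 peaks, 9 also had H3K27ac.

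STAT3 of Rybp+/+ ESCs was called at 0 of the 291 peaks, for which the upper limit is 1.30%, and at 7.85% of the distal WDR5 peaks (difference -7.85, -9.62 to -5.89). The DOX- list, from another line, also gave 0 of 291 against 8.22%. No peak could therefore be named for STAT3 in either list. In total, 190 of the peaks (65.3%, 59.7 to 70.5) overlapped none of H3K27ac, RING1B of shEV and STAT3 of Rybp+/+ ESCs, whereas this was so for 8.97% of the distal peaks (difference 56.3, 50.4 to 61.8).

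**Figure D2:**
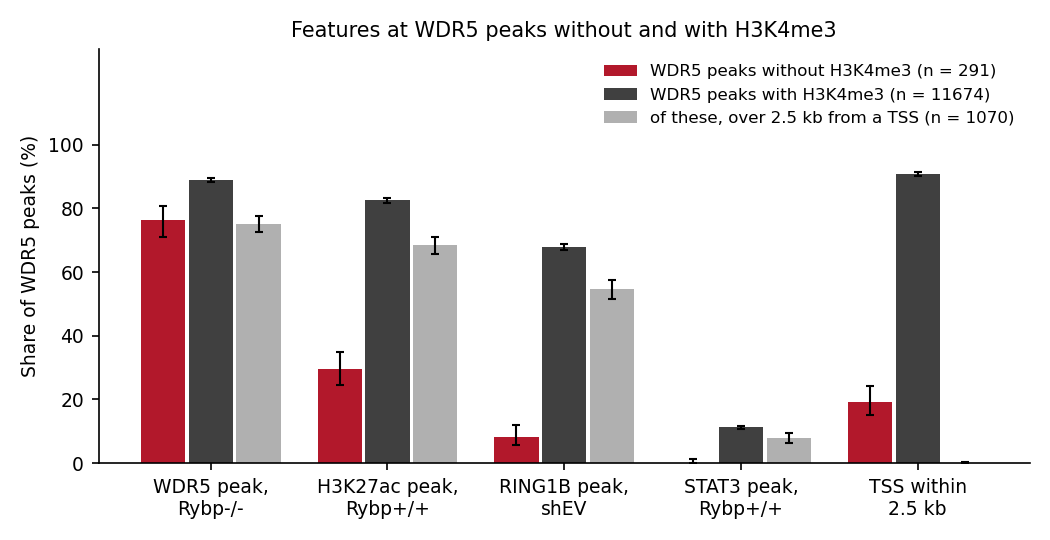
Share (%) of WDR5 peaks without H3K4me3, of the other WDR5 peaks and of the distal other peaks that have each feature, with 95% Wilson intervals as error bars. The bars of the 291 peaks are lowest for H3K27ac (29.6%), RING1B (8.25%) and STAT3 (0%); the distal group has no bar for a near TSS by its definition.

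Most peaks were called again after Rybp deletion. In the WDR5 list of Rybp-/- ESCs, which the rule did not use, 222 of the 291 peaks were present (76.3%, 71.1 to 80.8). The share was 89.0% for the other WDR5 peaks (difference -12.7, -17.9 to -8.14) and 75.2% for the distal ones (difference 1.06, -4.72 to 6.31), so that no difference from distal WDR5 peaks was detectable. With only WDR5 peaks of a MACS2 −log10 q of at least 5, it was 89.9% against 94.0% of the other WDR5 peaks (difference -4.13, -8.89 to -0.746). Retention followed height. With the peaks divided into 5 classes by fold enrichment, from the lowest to the highest, 24 of 59, 34 of 58, 48 of 58, 58 of 58 and 58 of 58 were retained. Weighted to the members' 10 classes of fold enrichment, the other WDR5 peaks were retained at 87.7%, so a difference of -11.4 remained at matched height. In the lowest of these 10 classes 36.7% of the members and 73.4% of the other WDR5 peaks were retained. In the highest class it was 100% of both. The distal peaks, with a median fold enrichment of 4.49 against 4.83, were not matched for height. All 69 peaks without a counterpart had a fold enrichment between 2.67 and 5.39, and the highest of them were nearest to Gm4204 (5.39), Gm15742 (5.10), Pear1 (4.92), Galr1 (4.92) and Gm13328 (4.83).

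By its percentile of fold enrichment within its own list (11965 peaks in Rybp+/+ and 12946 in Rybp-/- ESCs), a retained peak stood lower in Rybp-/- ESCs in 96 of 222 cases (43.2%, 36.9 to 49.8), and the share was 45.1% over the retained other WDR5 peaks. H3K4me3 was called in Rybp-/- ESCs at 27 of the 291 peaks (9.28%, 6.46 to 13.2). As absence of this mark in Rybp+/+ ESCs chose the peaks, the share could only move upwards. H3K27ac overlapped 95 of them in Rybp-/- ESCs (32.6%, 27.5 to 38.2), against 86 in Rybp+/+ ESCs. The share was also higher in Rybp-/- ESCs at the other WDR5 peaks (85.0% against 82.5%) and at the distal ones (72.6% against 68.4%), and the H3K27ac list was longer (62669 against 57642 peaks).

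**Figure D3:**
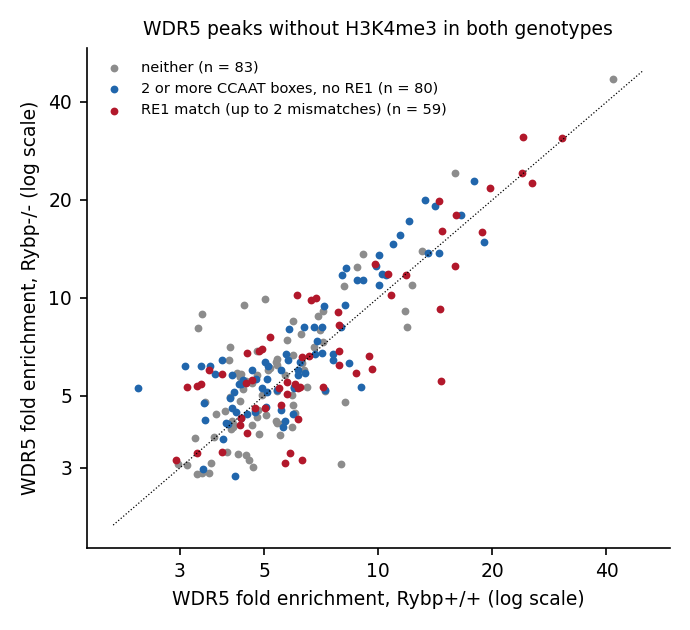
WDR5 fold enrichment in Rybp-/- against Rybp+/+ ESCs (both log axes, 1 list per genotype with replicates merged) for the 222 peaks without H3K4me3 that were called in both, coloured by sequence class. Points follow the diagonal, from the weakest peaks to the Srbd1 peak at 41.7 and 47.2.

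The peaks were rich in RE1 matches. Within 300 bases around the summit, 70 of the 291 peaks (24.1%, 19.5 to 29.3) matched RE1 with up to 2 mismatches, against 3.59% of the other WDR5 peaks (difference 20.5, 15.9 to 25.7). The share was 1.82% at 36289 H3K27ac peaks that overlap neither WDR5 nor H3K4me3, and 1.92% at 32851 RefSeq promoter windows of the same length (GRCm38.p6, 250 bases before to 50 after the start). Exact matches were found at 30 of 291 peaks (10.3%), against 0.351%, 0% and 0.0365%. Of the 71 WDR5 peaks with an exact match, 42.3% were among the 291. Windows of the peaks had a median GC content of 52.3% and those of the other WDR5 peaks 68.0%, and the part of base composition in these shares was not tested.

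RE1 matches came in tandem. Of the 70 windows, 43 (61.4%) held 2 or more copies and 18 held 3 or more, up to 5, and in 41 of the 43 all copies were on 1 strand. The median spacing between neighbouring copies on a strand was 44 bp (12 to 165 bp). Among the 419 other WDR5 peaks with RE1, 20 (4.77%) held 2 or more copies. The sets differ in match quality, as 56 of the 70 but 105 of the 419 matched with up to 1 mismatch. Copy number was not compared at equal match quality. The best match lay within 50 bp of the WDR5 summit in 47 of 70 windows (67.1%), and the median distance from the summit was 26 bp. Among equally good copies in a window the one nearest to the summit was taken, which pulls these values towards the summit. Positions within 50 bp make up 35.3% of the window, which is not the expected share under this choice.

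**Figure D4:**
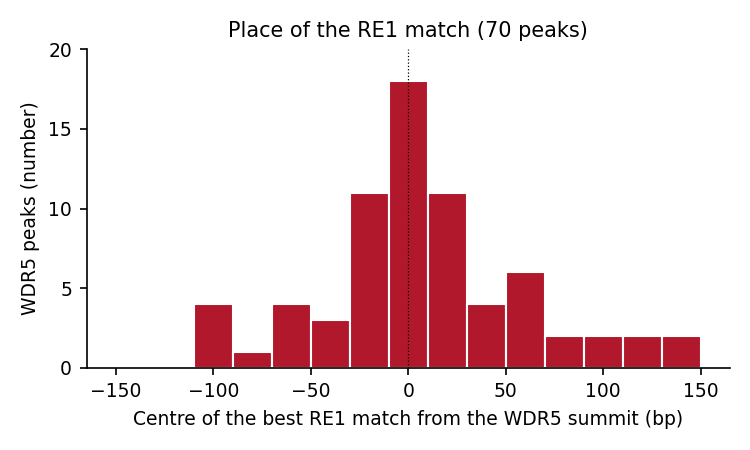
Number of peaks by the distance (bp) from the WDR5 summit to the centre of the best RE1 match, for the 70 peaks without H3K4me3 that hold a match, in bins of 20 bp. The matches shown gather around the summit at 0, with 47 of 70 within 50 bp. Of equally good copies in a window the one nearest to the summit was taken, which adds to this.

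Peaks with RE1 were free of H3K27ac. None of the 70 overlapped H3K27ac in Rybp+/+ ESCs (upper limit 5.20%), against 86 of the 221 peaks without RE1 (38.9%), a difference of -38.9 percentage points (-45.5 to -30.8). H3K27ac was present at 37 of 105 other WDR5 peaks that match RE1 with up to 1 mismatch (35.2%), while it was present at 0 of 56 members that match as closely (difference -35.2, -44.7 to -24.6). Among the other WDR5 peaks, too, H3K27ac was less frequent with such a match than without (35.2% against 83.0%, difference -47.7, -56.2 to -38.2). With up to 2 mismatches, 387 of the 419 other RE1 peaks and 16 of the 70 members had a TSS within 2.5 kb. RING1B was at 2 of the 70 peaks, and at 2 of 56 with up to 1 mismatch against 83 of those 105 other peaks (79.0%). In Rybp-/- ESCs, 59 of the 70 (84.3%) had a WDR5 peak, against 73.8% of those without RE1, and the interval of this difference reached 0 (10.5, -1.06 to 19.6). RE1 peaks were also far from H3K4me3, with a median of 10675 bp.

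CCAAT boxes were the other common element. CCAAT, counted on both strands, occurred in 170 windows (58.4%), against 34.8% at the other WDR5 peaks, 29.9% at the H3K27ac peaks and 37.4% at promoters. The part of base composition in the CCAAT shares was not tested. At least 2 copies were found in 98 windows (33.7%) and 15.6% of the other WDR5 windows (difference 18.1, 12.9 to 23.8). Against the distal WDR5 windows, of which 22.0% held at least 2, the difference was 11.7 (5.92 to 17.8). CCAATCAG, which contains CCAAT, was found in 42 windows (14.4%, against 6.30%). Apart from the RE1 windows, 95 peaks had 2 or more CCAAT boxes, and 33 of these overlapped H3K27ac and 80 were retained in Rybp-/- ESCs. Of the 126 peaks with neither element, 53 overlapped H3K27ac and 83 were retained. The median fold enrichment was 5.81 for the RE1, 5.42 for the CCAAT and 4.32 for the remaining peaks.

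Further motif words were counted in the same windows, and the part of base composition in their shares was not tested either. The AP-1 word TGANTCA was in 10.7% of the windows and 2.90% of the other WDR5 windows (difference 7.76, 4.69 to 11.8), and in 9.41% of the H3K27ac windows. The SOX word CTTTGT was in 17.2% of the windows, above the other WDR5 windows (10.2%, difference 6.96, 3.02 to 11.7) and below the H3K27ac windows (25.9%). The promoter words GGGCGG of SP1 (23.0% against 73.5%) and CCGGAAG of ETS factors (5.15% against 16.5%) were less frequent than at the other WDR5 peaks. TTCCNGGAA, the STAT word, was in 1.03% of the windows and 0.951% of the others, and the octamer ATGCAAAT in 1.37% and 0.857%. A core of the CTCF motif was in 4.81% and 3.14% (difference 1.67, -0.285 to 4.78).

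Some peaks shared a longer stretch of sequence. Aligned to each other (BLAST, E of at most 1e-05), 58 of the 291 windows fell into 8 groups of 3 or more. The largest had 23 members on 14 chromosomes, with a median identity of 78.7% over 87 bp. All 23 carried CCAAT and 20 carried it at least 2 times, 11 overlapped H3K27ac, and 20 were retained in Rybp-/- ESCs. Of the other WDR5 windows, 89 (0.762%) were related to this group. The inverted pair around AATAAAG printed above was present in 15 windows (5.15%), all of this group, and in 27 (0.231%) of the other WDR5 windows, 0.0165% of the H3K27ac windows and 0.0365% of promoters. The pair spanned 29 or 30 bases in 7 windows and 40 or 41 in 8.
A second group had 15 members, 10 of them with RE1, among them the Stmn3 site above and peaks nearest to Ccnc, Nsun3 and Rabep2. None of the 15 overlapped H3K27ac, 14 were retained, and no other WDR5 window was related to them. Windows in which over 30% of bases lay in repeated words of 12 bases numbered 18 (6.19%), against 0.343% of the other WDR5 windows, and the part of repeated sequence in peak height was not tested.

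The genes near these peaks had lower levels than the genes of other WDR5 peaks. A gene with its TSS within 50 kb was assigned to 260 peaks, giving 255 genes, of which 254 were in the count tables and 127 were also the nearest gene of another WDR5 peak. In shEV ESCs the median level per length of the 254 genes was 1.78 RPKM, and 45.3% were under 1 RPKM, whereas genes of the other WDR5 peaks had a median of 6.49 RPKM and 21.3% under 1. Over all genes in the table the median was 0.0558 RPKM and 68.8% were under 1, and the 127 member genes that were not the nearest gene of another WDR5 peak had a median of 0.160 RPKM, with 66.9% under 1. The median was 0.824 RPKM for the 59 genes of RE1 peaks, and it was 3.81 RPKM for genes of peaks with H3K27ac against 0.868 RPKM without. Rest itself had 56.2 and 57.2 RPKM in the shEV libraries, and it was chosen after its values were seen.

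Wdr5 knockdown was then examined, since it asks whether genes at these peaks respond to less WDR5. Wdr5 fell from 350 and 342 CPM (reads on the gene scaled to the size of the library) in the shEV libraries to 59.9 and 58.1 CPM in the shWdr5 libraries (log2 fold change -2.55 ± 0.05 SE, edgeR quasi-likelihood test, Benjamini-Hochberg adjusted p = 4.69e-21). The knockdown changed 63% of 15143 genes tested, with 31.5% higher and 31.5% lower. Of the 255 genes near the peaks, 176 passed the filter on low counts and were tested, and 58 were higher and 59 lower, 66.5% in all and near the share over all genes. With an absolute log2 fold change above 1 as well, 48 of the 176 (27.3%) were called, against 18.6% of all genes. Among member genes that were not also nearest to another WDR5 peak, 18 were higher and 16 lower of 60 tested (56.7%). For RE1 peaks, 11 genes were higher and 15 lower of 35 tested, with a median log2 fold change of -0.27 against -0.01 over all genes. For CCAAT peaks, 22 were higher and 15 lower of 61, with a median of 0.08. In bulk RNA, fewer cells of a type and less RNA per cell cannot be told apart.

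The largest falls after Wdr5 knockdown were those of Gprin1, Skor1, Vstm2l, Stmn3 and A230050P20Rik, all but Skor1 at RE1 peaks. These were picked by size. Of all 59 lower member genes 15 belonged to RE1 peaks, as did 11 of the 58 higher ones and 35 of the 176 tested. Gprin1, a G protein-regulated inducer of neurite outgrowth, had 2.25 and 1.97 CPM in shEV and 0.0466 and 0.431 CPM in shWdr5 libraries, the latter from 1 and 9 reads (log2 fold change -3.12 ± 0.50 SE, edgeR adjusted p = 8.93e-06). Its log2 fold change was -2.27 without shWdr5 replicate 1 and -5.32 without shWdr5 replicate 2. Vstm2l had 8.66 and 8.64 CPM against 1.35 and 1.77 CPM (-2.46 ± 0.19 SE, edgeR adjusted p = 1.61e-10). Stmn3, a stathmin of neurons that destabilises microtubules, had 12.4 and 12.0 CPM against 2.52 and 1.92 CPM (-2.45 ± 0.17 SE, edgeR adjusted p = 9.83e-12). The groups did not overlap for any of these genes. A230050P20Rik had 22.6 and 19.6 CPM against 3.31 and 4.55 CPM (-2.42 ± 0.14 SE, edgeR adjusted p = 5.14e-13). Skor1, a SKI-family corepressor whose peak had no RE1 match but a RING1B peak, had 4.07 and 4.80 CPM against 0.466 and 0.719 CPM (-2.89 ± 0.30 SE, edgeR adjusted p = 1.42e-08). Lin28a, an RNA-binding protein of ESCs that blocks let-7 maturation, was the one gene of the pluripotency list at these peaks. Its TSS lies 1964 bp from the summit of a peak of fold enrichment 7.85 with an exact RE1 match, and it fell from 293 and 292 CPM to 137 and 139 CPM (-1.08 ± 0.05 SE, edgeR adjusted p = 2.35e-15).

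The largest rises were those of Ahnak2, Tbx4, Onecut1, Prr19 and Lhx5. Ahnak2, a large scaffold-like protein, rose from 6.98 and 6.72 CPM to 70.8 and 80.4 CPM (log2 fold change 3.46 ± 0.09 SE, edgeR adjusted p = 5.17e-19). Tbx4, a T-box factor of hindlimb and lung, rose from 3.32 and 4.24 CPM to 27.3 and 29.2 CPM (2.90 ± 0.12 SE, edgeR adjusted p = 2.35e-15). Both peaks carried 2 or more CCAAT boxes, and neither had H3K27ac. Onecut1, a homeodomain factor of liver and neurons whose peak has an intronic summit and an RE1 match, rose from 0.468 and 0.758 CPM to 4.24 and 3.50 CPM (2.66 ± 0.31 SE, edgeR adjusted p = 1.05e-07). Prr19 rose from 2.90 and 3.84 CPM to 16.7 and 19.9 CPM (2.45 ± 0.15 SE, edgeR adjusted p = 1.29e-12). Lhx5, a LIM homeobox factor of the forebrain, rose from 0.328 and 0.606 CPM to 1.96 and 2.40 CPM (2.22 ± 0.39 SE, edgeR adjusted p = 2.84e-05). Onecut1, Lhx5, Gprin1 and Skor1 were under 1 CPM in both libraries of their lower group, so they passed the minimum mean of 1 CPM through the group where they were high.

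**Figure D5:**
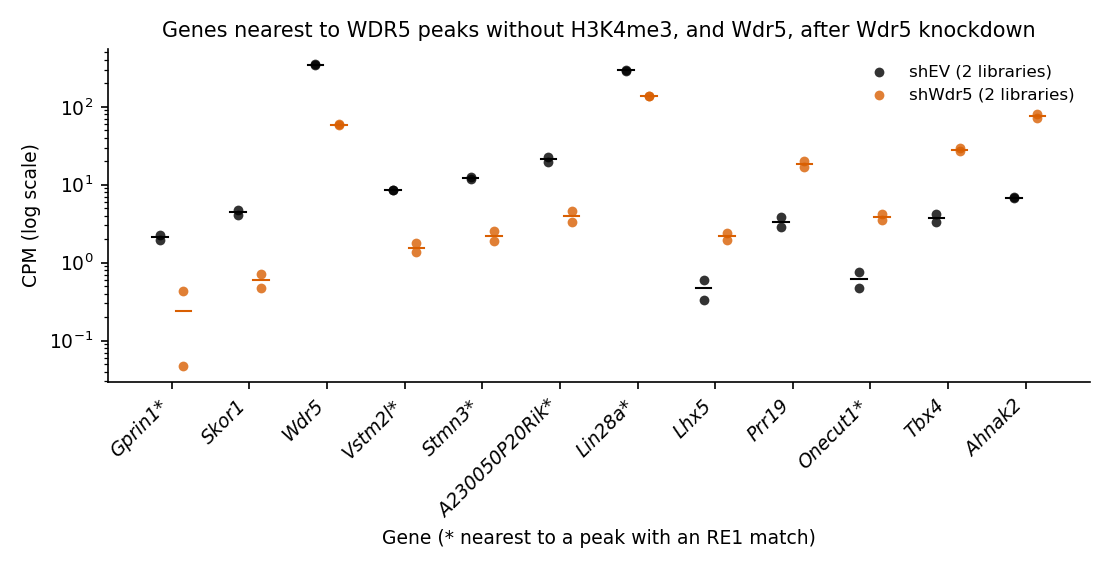
CPM (log axis) of the named genes nearest to WDR5 peaks without H3K4me3, and of Wdr5, in each of 2 shEV and 2 shWdr5 libraries, with a bar at each mean. Asterisks mark genes of RE1 peaks; in every gene shown the libraries of the groups do not overlap, from Ahnak2 (6.98 and 6.72 against 70.8 and 80.4 CPM) to Gprin1.

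Rest fell slightly in the same libraries, from 56.2 and 57.2 RPKM to 45.4 and 44.3 RPKM (log2 fold change -0.34 ± 0.04 SE, edgeR adjusted p = 4.61e-07), and its part in the changes at RE1 genes was not tested. Of the pluripotency list, 7 genes were higher and 20 lower of 35 (77.1% called). Of the list of WDR5 complex subunits 8 were higher and 6 lower of 21 (66.7%). Over all genes tested, 63% were called, 31.5% higher and 31.5% lower, so the WDR5 complex list was near that share. ESC markers were high in all libraries, at a summed 5160 to 5193 RPKM in shEV and 4324 to 4342 RPKM in shWdr5 ESCs. Of the markers of other cells, the summed trophectoderm genes were at 0.905 to 0.907 RPKM in shEV and 3.84 to 3.94 RPKM in shWdr5 ESCs, with 2 higher and 0 lower of 3 tested. Endoderm genes were at 1.78 to 2.49 against 8.31 to 8.65 RPKM (3 higher and 0 lower of 4), and mesoderm genes at 1.95 to 2.01 against 3.44 to 3.73 RPKM (2 higher and 1 lower of 5). Fibroblast or feeder genes were at 7.93 to 8.00 against 3.6 to 4.11 RPKM (1 higher and 2 lower of 4). The neural sum, led by Tubb3, was at 150 to 156 against 102 to 106 RPKM, with 2 genes higher and 2 lower of 4. Their part in the changes was not tested.

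Rybp knockdown was compared with the same shEV libraries, so its comparison and that of Wdr5 share their controls. Rybp fell from 85.7 and 86.3 CPM to 35.8 and 36.5 CPM (log2 fold change -1.25 ± 0.06 SE, edgeR adjusted p = 4.54e-12). The knockdown changed 52.7% of all genes tested, with 26.8% higher and 26% lower. Of 186 genes tested near the peaks, 56 were higher and 56 lower (60.2%), and 25 (13.4%) were also past an absolute log2 fold change of 1, against 12.6% of all genes. Among those not also nearest to another WDR5 peak, 23 were higher and 12 lower of 68 (51.5%). Of 39 genes of RE1 peaks 10 were higher and 11 lower. Lin28a fell from 312 and 312 CPM to 115 and 109 CPM (-1.48 ± 0.05 SE, edgeR adjusted p = 3.45e-14). Skor1 fell from 4.15 and 5.00 CPM to 0.907 and 1.02 CPM (-2.24 ± 0.25 SE, edgeR adjusted p = 6.06e-07). Stmn3 fell by 1.02, Dlgap3, a postsynaptic scaffold gene, by 1.00 and Dmrt1 by 0.94 on the log2 scale. The largest rises after Rybp knockdown were those of Elfn1 (2.62), which was under 1 CPM in both shEV libraries and passed the minimum through shRybp, Nlrc5, an activator of MHC class I genes (2.25), Itpkb, an inositol phosphate kinase (2.15), Ahnak2 (2.01) and Greb1l (1.90). Of these, the Itpkb and Ahnak2 peaks carried 2 or more CCAAT boxes. In the same libraries the summed markers were higher in shRybp than in shEV ESCs for trophectoderm (0.923 to 0.979 against 4.66 to 4.76 RPKM, 3 higher of 4 tested), endoderm (1.73 to 2.52 against 5.04 to 5.27 RPKM, 4 of 4), mesoderm (1.93 to 1.96 against 6.26 to 6.55 RPKM, 1 of 5) and fibroblast or feeder genes (8.29 to 8.38 against 13.5 to 14.0 RPKM, 3 of 4). The neural sum was 159 to 165 in shEV and 109 to 110 RPKM in shRybp ESCs (2 higher and 2 lower of 4), and that of ESC markers 5486 to 5523 and 4955 to 4995 RPKM. The part of these markers in the rises and falls was not tested.

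In Rybp-/- ESCs, reads on Rybp fell from 110 and 111 CPM to 24.8 and 24.9 CPM (log2 fold change -2.15 ± 0.05 SE, edgeR adjusted p = 8.09e-27). The deletion changed 45.5% of all genes tested, with 22.8% higher and 22.7% lower. Near the peaks, 42 genes were higher and 55 lower of 184 tested (52.7%), and 11 (5.98%) were also past an absolute log2 fold change of 1, against 7.84% of all genes. Among those not also nearest to another WDR5 peak, 14 were higher and 13 lower of 67 (40.3%), below the share over all genes. For RE1 peaks 6 were higher and 14 lower of 38, with a median log2 fold change of -0.16. Lin28a had 397 and 383 CPM in Rybp+/+ and 295 and 306 CPM in Rybp-/- libraries (-0.37 ± 0.03 SE, edgeR adjusted p = 1.54e-11).
Dmrtb1, a DM-domain gene, had 1.76 and 1.32 CPM against 7.57 and 8.00 CPM (2.34 ± 0.15 SE, edgeR adjusted p = 2.43e-14). Serpinh1, the collagen chaperone, had 35.8 and 36.7 CPM against 103 and 102 CPM (1.51 ± 0.04 SE, edgeR adjusted p = 2.54e-23), and its peak overlapped H3K27ac. The other large rises were those of Hormad2, a meiotic gene (1.93) that was under 1 CPM in both Rybp+/+ libraries and passed the minimum through Rybp-/-, Pear1 (1.57) and Hpca, a neuronal calcium sensor (1.49). Fibroblast or feeder markers were also higher in Rybp-/- ESCs, at a summed 24.1 to 25.4 RPKM against 11.7 to 12.3 RPKM, with 6 of 6 passing the test. Trophectoderm markers were at 1.58 to 1.74 against 0.767 to 0.788 RPKM in Rybp+/+ ESCs (4 of 4 higher) and endoderm markers at 1.20 to 1.30 against 0.859 to 0.961 RPKM (1 of 4 higher). Mesoderm markers were at 2.32 to 2.45 against 2.30 to 2.31 RPKM (1 higher and 1 lower of 4) and neural markers at 41.8 to 42.5 against 36.6 to 39.9 RPKM (2 higher and 1 lower of 4). The part of these markers in the changes was not tested.
Atp2b2, a calcium pump of the plasma membrane, had 3.10 and 2.43 CPM against 1.13 and 0.829 CPM (-1.49 ± 0.23 SE, edgeR adjusted p = 2.69e-06). The other large falls were those of 2300002M23Rik (-1.28), Foxi3, a forkhead gene (-0.88), Kcnip2, a potassium channel partner (-0.82), and Dpcr1 (-0.76). The call for Dpcr1 was lost with DESeq2 (log2 fold change -0.76) and without Rybp+/+ replicate 2 (-0.50), Rybp-/- replicate 1 (-0.75) or Rybp-/- replicate 2 (-0.76).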

How the data were processed

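The authors trimmed the ChIP-seq reads, mapped them to mm9 with Bowtie2, pooled the replicates and ran MACS2 with input as control (FDR 0.01 is stated, yet the Rybp+/+ WDR5 list reaches down to a −log10 q of 1.31 and the RING1B lists to 1.04 and 1.01). The deposited lists give each peak's position, fold enrichment as a ratio, and −log10 q. For RNA-seq, the authors aligned with STAR and deposited raw HTSeq counts per gene, and use of strand is not given in the sources used here, so overlapping antisense genes cannot be told apart. From 13.7% to 57.4% of reads fell in no gene and were left out.

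The members, gene lists, motif words and sequence classes were chosen with earlier results of these data known. Overlap meant 1 shared bp. Genes and TSSs came from the Ensembl NCBIM37 annotation and sequences from the mm9 genome (pysam 0.24.0, BLAST+ 2.17.0). Super-enhancers were H3K27ac peaks stitched within 12.5 kb and ranked by signal. Counts were tested with edgeR 4.0.16 (TMM, filterByExpr, quasi-likelihood test, Benjamini-Hochberg adjustment over all genes tested, threshold 0.05), with SE taken as the log2 fold change over the square root of F. On simulated counts, the test recovered 83.8%, 80.2% and 72.9% of genes changed by 1 on the log2 scale for Wdr5 knockdown, Rybp knockdown and Rybp-/-. Genes named in a comparison were the 5 largest rises and falls with an adjusted p under 0.05 and a mean of at least 1 CPM, plus the targeted gene and pluripotency genes. Regions named were the 10 highest, and the 5 highest of the unretained, RING1B and H3K27ac subsets. Alternatives were DESeq2 1.42.0, RLE factors, no filter, replicates left out, a replicate block, other overlaps, windows of 200 bp and distances. The shEV columns of the knockdown tables correlate at 0.9999 across genes with a median ratio of 0.510, so the same libraries were counted differently, and tests stayed within a table. Of the 10 highest peaks, 1 is counted but not reported here by name or sequence.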

Additional observations from a re-analysis of the deposited data

Results flagged for a closer look

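STAT3 was called at 48 of the 291 WDR5 peaks without H3K4me3 in Tet.Rybp.Stat3 ESCs with doxycycline (16.5%, 95% Wilson interval 12.7 to 21.2), and at 0 of them in the same line without it. This list was outside the comparisons above, and the share among distal WDR5 peaks with doxycycline was 65.6%. The STAT3 list held 30663 peaks with doxycycline and 2816 without, and at the other WDR5 peaks the shares were 84.7% and 14.6%. Of the 48 peaks, 21 also overlapped H3K27ac of Rybp+/+ ESCs and 5 had an RE1 match.

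For 4 of the genes named in a Rybp comparison, both libraries moved one way in Rybp-/- R7.15 ESCs and the other way in shRybp R1 ESCs. Atp2b2 had a log2 fold change of -1.49 in Rybp-/- and 0.72 in shRybp ESCs. Dmrt1 had 0.18 and -0.94, and Foxi3 -0.88 and 1.14. Greb1l had -0.26 and 1.90, and it did not pass the test in Rybp-/- ESCs. The lines, tables and controls differ, and the difference itself was not tested. Of the 63 member genes changed in both comparisons, 45 had the same sign (71.4%) and 18 the opposite sign, near the share over all 4748 genes changed in both (3238 with the same sign, 68.2%).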

How the results depend on the processing

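Of the main values recomputed under the alternatives, 85 were judged the same, 10 moved and 1 changed direction. Counts were judged by a fixed fold limit around the main count. Shares were judged by whether the interval of their difference excluded 0 as before. For the share with H3K4me3 in Rybp-/- ESCs, the interval of the main share was used. Set against distal WDR5 peaks, chosen after seeing the data, the difference in retention in Rybp-/- ESCs changed sign but was not detectable (76.3% against 75.2%, difference 1.06, -4.72 to 6.31). The share with H3K4me3 in Rybp-/- ESCs was 3.79% for members at least 1 kb from H3K4me3 and 3.44% when 50% of the peak had to be covered. With an absolute log2 fold change above 1, 2815 genes (48 near members) changed after Wdr5 knockdown, 2088 (25) after Rybp knockdown and 1330 (11) in Rybp-/- ESCs, 27.3%, 13.4% and 5.98% of the member genes tested. With a TSS within 10 kb, fewer genes were tested, and 79 of 108 member genes (73.1%, against 63% of all genes) changed after Wdr5 knockdown, 70 of 114 (61.4%, against 52.7%) after Rybp knockdown and 61 of 111 (55%, against 45.5%) in Rybp-/- ESCs. With replicates left out, member genes changed numbered 109 to 117, 92 to 109 and 77 to 91, and all genes changed 8272 to 9020, 6941 to 8463 and 6081 to 7197. Samples with the same replicate number did not deviate together (correlation 0.04, 0.03 and -8.13e-05), and with a replicate block 9865, 9110 and 7724 genes changed. The named genes kept their calls in 276 of 280 values, and the other 4 were all Dpcr1.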
